A study of Mus musculus with 2 samples.

Results

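Accessible chromatin at 39 genes of DNA replication and mitosis was examined in basal cells of mouse interfollicular epidermis. The genes were 20 genes of S phase and its onset and 19 genes of mitosis. A merged region belonged to a gene when that gene's RefSeq span (GRCm38) was the nearest protein-coding span within 10 kb, with the shorter span taken where spans overlapped, and when it held at least 20 counts summed over the libraries. By this rule 76 of 67183 assigned regions belonged to 38 of the genes, 39 regions to S phase genes and 37 to mitosis genes. A further 11 regions of these genes fell under the count minimum. Regions that touched an annotated end of their gene (35 regions of 34 genes) were kept apart from the other 41 regions.

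The assay was ATAC-seq, in which the enzyme Tn5 cuts and tags DNA that nucleosomes leave exposed. Cells of the back skin were sorted as positive for ITGA6, the integrin subunit that ties basal cells to the basement membrane, and as negative for CD34, a surface marker of hair follicle stem cells. There was 1 library for each of 2 groups, each from 10000 cells of 1 CD1 mouse, an outbred stock. The control mouse had no treatment, and the skin of the other mouse had undergone tissue stretching. The title of the stretched sample also holds the tag D2, which was not interpreted here. The labels give no age or sex, and they name no transgene or Cre allele in either group. With no replicates there is no test and no p-value. Each interval below is an exact 95% (Clopper-Pearson) interval that covers counting error only, not the difference between any 2 animals. More cells with an open site and a wider opening per cell cannot be told apart in such a library.

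Genes of this kind switch on as a cell leaves quiescence and passes through the cycle. Cyclin E with CDK2 releases E2F factors, which drive the genes for origin licensing, nucleotide supply and the replication fork. Later, the MuvB complex with MYBL2 and FOXM1 drives genes for the spindle, the kinetochore and the anaphase-promoting complex (APC/C). In the epidermis these genes are active mainly in the dividing cells of the basal layer and shut down as cells leave it. Their promoters are often open in resting cells too, so openness and transcription are separate quantities.

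Control and stretched libraries held 31944854 and 23876613 fragments, and 8820178 and 11803785 counts over all merged regions. A set of 10 regions took 34.5% and 48.9% of these counts. Outside that set there were 18.1 and 25.2 counts per 100 fragments, so the stretched library gave more counts in regions for its depth. All 6 basal keratinocyte markers had regions (Krt5, Krt14, Itga6, Itgb4, Col17a1 and Trp63), with a summed fold of 1.1 (1.05 to 1.14). The summed folds of other markers were 0.806 for suprabasal keratinocytes, 0.986 for hair follicle stem cells, 0.747 for fibroblasts, 0.751 for immune cells, 0.918 for endothelial cells and 0.938 for melanocytes, and each list had regions for every gene in it. Every list held genes on both sides of 1. Folds ran from 0.863 (Col17a1) to 1.26 (Krt14) for basal and from 0.598 (Krt10) to 1.22 (Lor) for suprabasal markers. For follicle markers they ran from 0.742 (Lhx2) to 1.43 (Cd34). The part of these differences in the results below was not tested.

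At the gene ends, most replication and mitosis genes had more counts in the stretched library, whereas their other regions mostly did not. Folds are stretched over control after TMM scaling, which centres the trimmed mean log ratio of all regions. Of the 35 gene-end regions, 28 had a fold above 1 (80%, against 69.8% of all 11272 gene-end regions), and the median log2 fold was 0.54 against 0.30. The interval lay above 1 in 24 (68.6%, against 44.0% of all) and below 1 in 3 (8.57%, against 9.19% of all). Intervals narrow with count, and the median count was 309 here against 247 for all. Among gene ends between the count quartiles of these genes, 12 of 17 had an interval above 1 (70.6%, against 50.2% of all 3632). Their median log2 fold was 0.56 against 0.35. Of the 41 other regions, 16 had a fold above 1, where 45.7% of all 55911 other regions did. The median log2 fold of the 41 was -0.24, against -0.07 for all other regions. Over all genes, too, most gene-end regions thus lay above 1 and most other regions did not. S phase genes had a gene-end median of 0.64 and a summed fold of 1.64 (1.57 to 1.72). Mitosis genes had a median of 0.37 and a summed fold of 1.34 (1.26 to 1.42). The summed fold of all gene-end regions was 1.34. With counts scaled by library totals, 20 of the 35 gene-end regions stayed above 1, and the mitosis sum fell to 0.944.

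Few regions were at least 2-fold apart with an interval that excluded 1, the rule used here to call a region higher or lower. At the gene ends, 3 of 35 were called higher (8.57%), which is near the 9.94% of all gene-end regions. None was called lower, where 2.47% of all gene-end regions were. Among the other regions, 2 of 41 were called higher (4.88%, against 6.11% of all) and none lower (against 9.86% of all). The 5 called regions belonged to Ccne1, Mcm4, Cenpe, Ccna2 and Mki67.

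**Figure D1:**
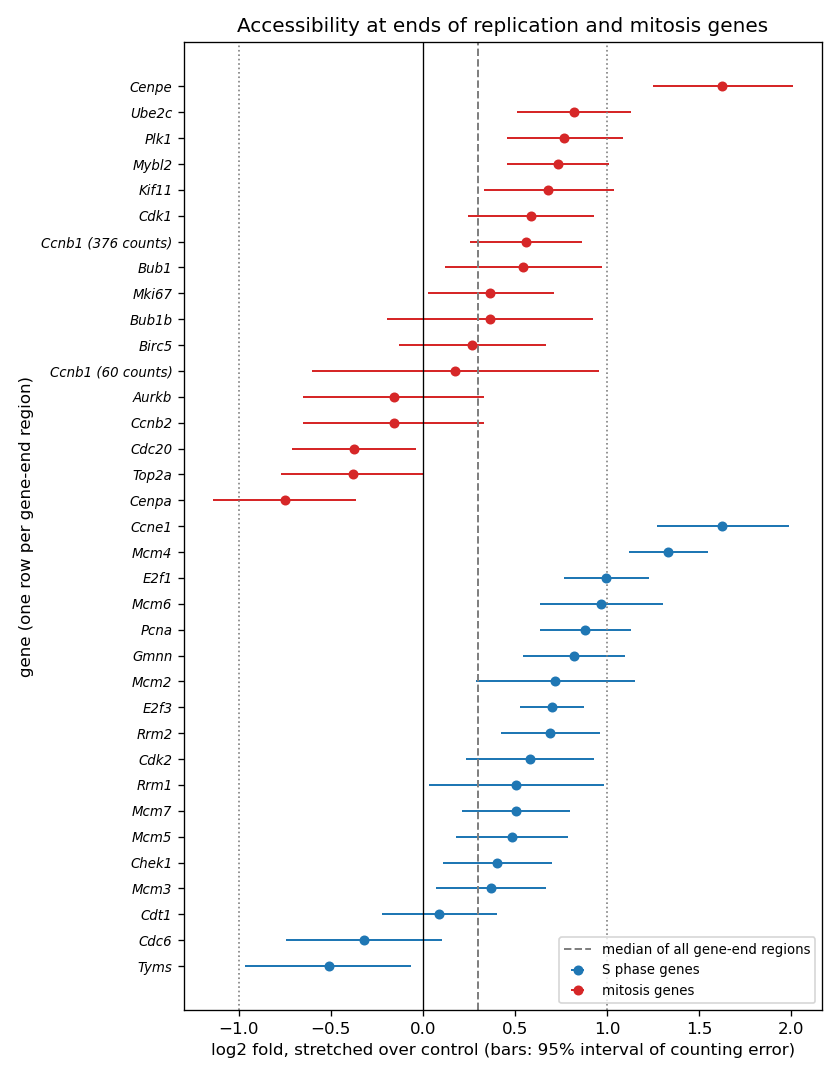
Log2 fold (stretched over control) of each of the 35 gene-end regions, with bars for the 95% counting interval, S phase genes in blue and mitosis genes in red; dotted lines mark 2-fold and the dashed line the median of all gene-end regions, 0.30. Ccne1 and Cenpe lie furthest right at 1.62 and Cenpa furthest left at -0.75.

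Among the genes that start S phase, Ccne1 and E2f1 had some of the clearest differences. Ccne1, which encodes cyclin E1, the activator of CDK2, lies on chromosome 7 from 38097984 to 38107490. Its gene-end region, from 38107116 to 38108251, held 89 control and 259 stretched counts, for a fold of 3.08 (2.41 to 3.96). E2f1, an activating E2F factor, had 237 control and 447 stretched counts at its end on chromosome 2 (154568955 to 154570409). Its fold of 1.99 (1.70 to 2.34) fell just short of 2. E2f3, another activating E2F factor, had the most counts of any gene-end region studied, 451 and 694, with a fold of 1.63 (1.44 to 1.83). Cdk2, the kinase partner of cyclin E, had 121 and 171 counts, a fold of 1.49 (1.18 to 1.9), in a region that also overlaps the melanosome gene Pmel. All 4 gene ends of the cyclin E, CDK2 and E2F genes thus had intervals above 1, against 44.0% of all gene-end regions. Their median count was 516, against 247 for all, and intervals narrow with count. Against the median log2 fold of gene-end regions of like count and gene density, 3 of the 4 lay above. E2f3 was at -0.12.

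Ccne2 and E2f2 had no region that touched a gene end. Ccne2, the gene of cyclin E2, had its only region 9 bp inside the gene from an annotated end, with 178 control and 269 stretched counts and a fold of 1.60 (1.32 to 1.94). E2f2, the third activating E2F gene, had 5 regions with folds from 0.488 to 1.39. Its region with the most counts, 149 and 196, covers an internal start site listed by RefSeq and had a fold of 1.39 (1.12 to 1.73). An intragenic region 2235 bp from the gene end had 106 and 61 counts, a fold of 0.608 (0.436 to 0.841). The E2f2 locus thus held regions on both sides of 1.

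The origin licensing genes load the MCM2-7 helicase onto DNA before S phase. Mcm4, a helicase subunit, had the highest fold of the group. Its gene-end region on chromosome 16 (15636788 to 15638223) held 258 control and 614 stretched counts, for a fold of 2.51 (2.17 to 2.92). This region also overlaps Prkdc, the gene of a DNA repair kinase, so its counts belong to both genes. Mcm6 followed with 117 and 216 counts, a fold of 1.95 (1.55 to 2.46). Mcm2 had 76 and 118 counts, a fold of 1.64 (1.22 to 2.22). The 3 remaining helicase genes were closer to 1 but had intervals above it. Mcm7, whose region overlaps Ap4m1, had 172 and 231 counts and a fold of 1.42 (1.16 to 1.74). Mcm5 had 159 and 210 counts and a fold of 1.40 (1.13 to 1.73). Mcm3 had 172 and 210 counts and a fold of 1.29 (1.05 to 1.59). Gmnn, which encodes geminin, the inhibitor of licensing, had 172 and 287 counts and a fold of 1.76 (1.45 to 2.14).

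The 2 loaders of the helicase had no interval above 1 at their gene ends. Cdt1, which geminin blocks, had 173 control and 174 stretched counts, for a fold of 1.06 (0.856 to 1.32). Cdc6, which recruits the helicase together with CDT1, had 112 and 85 counts at its gene end, a fold of 0.802 (0.598 to 1.07). Its other regions, inside the gene and 1050 bp beyond it, had folds of 0.684 (0.381 to 1.2) and 0.657 (0.444 to 0.962). All 3 Cdc6 regions therefore had fewer counts in the stretched library after scaling, and only the interval of the last excluded 1.

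Genes of the replication fork, of nucleotide supply and of the S phase checkpoint had intervals above 1 at 4 of 5 gene ends. This is 80%, against 44.0% of all gene-end regions, and none of the 5 was called higher. Their median count was 385, against 247 for all. Against gene-end regions of like count and gene density, 3 of the 5 lay above the median. Pcna, the sliding clamp of DNA polymerases, had 217 control and 378 stretched counts, for a fold of 1.84 (1.55 to 2.19), in a region that also overlaps Cds2. Rrm2, the regulated subunit of ribonucleotide reductase, had 191 and 292 counts, a fold of 1.62 (1.34 to 1.95). Rrm1, the large subunit, had 67 and 90 counts, a fold of 1.42 (1.02 to 1.98). Chek1, the kinase that halts the cycle when forks stall, had 171 and 214 counts, a fold of 1.32 (1.08 to 1.63). Tyms, the thymidylate synthase gene, went the other way with 107 and 71 counts, a fold of 0.701 (0.512 to 0.955). It was the only gene-end region of an S phase gene whose interval lay below 1.

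Genes of the mitotic cyclins and of their activators were mixed. Ccna2, the gene of cyclin A2, which acts in S phase and at entry into mitosis, had a single region 482 bp inside the gene from an annotated end. On chromosome 3 from 36571347 to 36572556, it held 232 control and 473 stretched counts, for a fold of 2.15 (1.84 to 2.53). Ccnb1, the gene of cyclin B1, had 157 and 219 counts at its start, a fold of 1.47 (1.2 to 1.82). Its region at the opposite end had 29 and 31 counts, a fold of 1.13 (0.659 to 1.94). Cdk1, the kinase that cyclin B activates, had 124 and 176 counts, a fold of 1.5 (1.19 to 1.9). Mybl2, the MuvB partner, had 180 and 283 counts, a fold of 1.66 (1.37 to 2.01). Ccnb2, the gene of cyclin B2, had 79 and 67 counts, a fold of 0.896 (0.637 to 1.26), so its 2 libraries were within counting error of each other.

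Foxm1 and Aurka ends were shared with neighbours, and the assignment gave those regions to the shorter gene. Foxm1, the forkhead factor of late cell cycle genes, kept a single region 2978 bp inside the gene, with 25 and 27 counts. The region at its end, assigned to Rhno1, had 103 and 112 counts, a fold of 1.15 (0.871 to 1.52). Aurka, a kinase of centrosomes and spindle poles, had no region of its own. The region at its end on chromosome 2 (172370002 to 172371485), assigned to Cstf1, had 175 and 390 counts, a fold of 2.35 (1.97 to 2.83).

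Of the other mitotic kinase and passenger complex genes, Plk1 stood highest. This gene of a kinase of mitotic entry and exit had 139 control and 224 stretched counts, for a fold of 1.70 (1.37 to 2.12). Birc5, which encodes survivin, a passenger subunit, had 101 and 115 counts at its end, a fold of 1.2 (0.913 to 1.59). Aurkb, the kinase of that complex, had 79 and 67 counts, a fold of 0.896 (0.637 to 1.26). Both passenger genes had gene-end intervals that held 1.

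The spindle checkpoint holds anaphase until CDC20 can activate the APC/C. Bub1, a checkpoint kinase, had 82 and 113 counts at its end, a fold of 1.46 (1.09 to 1.96). Bub1b, whose product BUBR1 binds CDC20, had 51 and 62 counts, a fold of 1.28 (0.873 to 1.9). Ube2c, the ubiquitin-conjugating enzyme of the APC/C, had 142 and 237 counts, a fold of 1.76 (1.43 to 2.19). Cdc20 itself had folds below 1 in all 3 of its regions, none called lower. Its gene-end region had 178 and 130 counts, a fold of 0.772 (0.611 to 0.973), and the regions 630 bp outside and 1633 bp inside had folds of 0.564 (0.328 to 0.945) and 0.515 (0.286 to 0.900).

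Genes of centromeres, spindle motors and mitotic chromosomes held both extremes. Cenpe, a kinetochore motor, had 79 control and 230 stretched counts at its end on chromosome 3 (135211815 to 135213209), a fold of 3.08 (2.37 to 4.02). Kif11, the motor that separates spindle poles, had 114 and 173 counts, a fold of 1.60 (1.26 to 2.05). Mki67, the gene of the proliferation marker Ki-67, had 132 and 161 counts, a fold of 1.29 (1.02 to 1.63). Top2a, the topoisomerase that untangles sister chromatids, had 135 and 98 counts, a fold of 0.767 (0.585 to 1.0). Cenpa, the histone H3 variant of centromeres, had the lowest fold of all 35 gene-end regions. On chromosome 5 from 30666272 to 30667419, it held 158 and 89 counts, a fold of 0.595 (0.454 to 0.777).

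Per kb of region, levels at these gene ends spanned a several-fold range in each library. TMM-scaled CPM per kb of region ran from 4.51 at Bub1 to 21.7 at Cdc20 in control cells. In stretched skin they ran from 5.69 at Aurkb to 43.1 at Mcm4. The plot of scaled counts by library shows the same regions beside the regions away from gene ends.

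**Figure D2:**
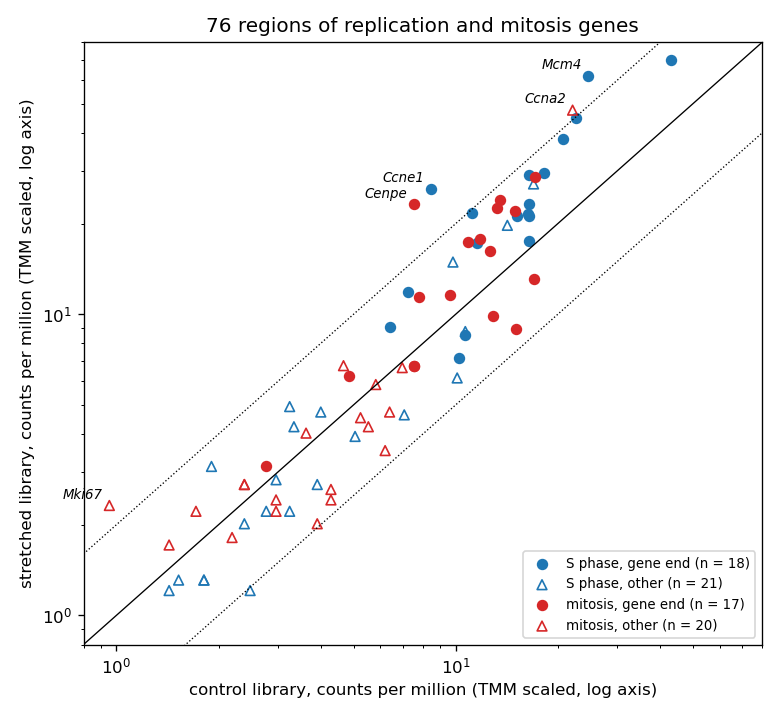
TMM-scaled CPM of the 76 regions, control on the x axis and stretched on the y axis (log axes); filled circles are gene-end regions, open triangles other regions, the solid line marks equality and the dotted lines 2-fold. The 5 named regions are those called higher, and no region is called lower.

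Away from the gene ends, folds scattered around a value slightly below 1. The interval lay above 1 in 5 of these 41 regions and below 1 in 5 (12.2% each), near the 14.2% and 17.3% of all other regions. Those above were at Ccne2, E2f2, Rrm2, Ccna2 and Mki67. The Rrm2 region lay 9077 bp beyond the gene, with 103 and 148 counts, a fold of 1.52 (1.17 to 1.97). The intragenic Mki67 region, on chromosome 7 from 135699252 to 135699887, had only 10 and 23 counts, a fold of 2.43 (1.11 to 5.72), and the other 2 Mki67 regions away from the end had folds of 0.827 (0.421 to 1.60) and 0.955 (0.674 to 1.35). Those below were at E2f2, Cdc6, Birc5 and 2 at Cdc20. The Birc5 region, 3763 bp outside the gene, had 65 and 35 counts, a fold of 0.569 (0.366 to 0.871).

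The sums of these other regions depended on 2 regions close to a gene end. The summed fold was 1.09 (1.0 to 1.18) for S phase genes and 1.18 (1.08 to 1.28) for mitosis genes. Without the Ccne2 region the S phase sum was 0.998, and without the Ccna2 region the mitosis sum was 0.886. All 5 regions of Bub1b away from its touched end had intervals that held 1, with folds from 0.750 to 1.14, as did the 3 intragenic E2f3 regions, with folds from 0.696 to 0.778.

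Within single genes, the gene end usually had the higher fold. Of the 18 genes with both kinds of region, 16 had a higher summed fold at the end (88.9%), against 70.3% of all 7793 genes with both kinds. The median difference in log2 fold, end minus other, was 0.57 against 0.32. At Ccne1 the end stood at a log2 fold of 1.62 and the other regions at -0.21. At Ube2c they stood at 0.82 and -0.39, and at Birc5 at 0.27 and -0.77. Tyms and Mcm5 were the exceptions, with -0.51 and 0.19 at Tyms and 0.48 and 0.61 at Mcm5. Whether the difference between these genes and all genes exceeds variation between animals was not tested.

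**Figure D3:**
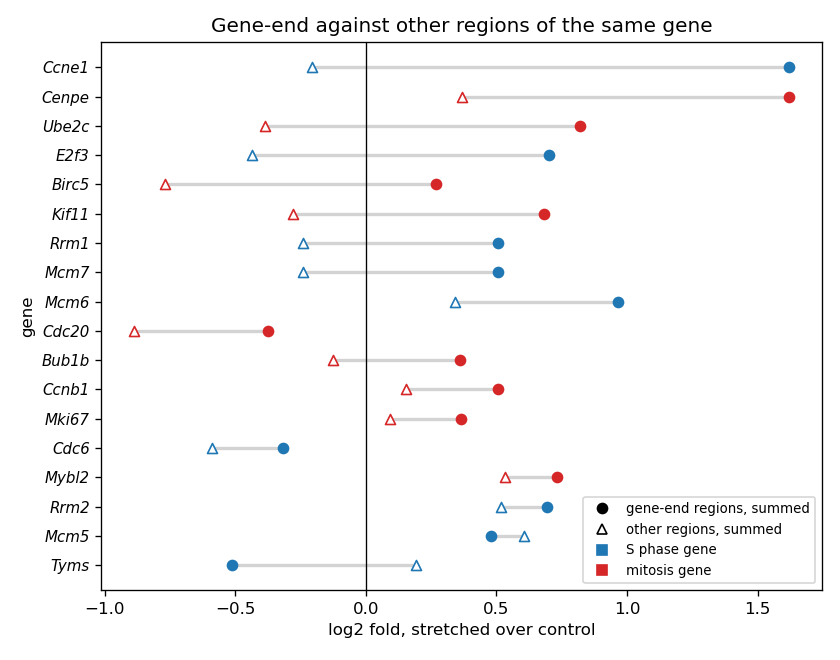
Log2 fold (stretched over control) of the summed gene-end regions (circles) and the summed other regions (triangles) of the 18 genes that had both, joined by a line per gene, S phase genes in blue and mitosis genes in red. In 16 of the 18 genes the circle lies to the right of the triangle.

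Count and gene density moved with these folds, here and across the genome. Over the 35 gene-end regions, Spearman's rho between the log2 fold and local gene density (how many protein-coding genes have their centre within 500 kb) was -0.41, against -0.26 over all gene-end regions. With the summed count, which contains the stretched count, rho was 0.60 against 0.41. The regions share their libraries, so these are descriptions. In the sparsest surroundings (at most 10 genes), all 11 gene ends were above 1 (78.9% of all gene-end regions there were), with a median log2 fold of 0.69, against 0.51 for all gene-end regions there. Among them were Ccne1, Mcm4 and Cenpe. With over 20 genes nearby, 7 of 12 were above 1 (58.3%, against 61.1% of all there), with a median of 0.22, against 0.13. Cenpa (28 genes), Cdc20 (26), Top2a (35), Cdc6 (35) and Aurkb (31) lay in such dense surroundings, but so did Ube2c (44) and Cdk2 (52), whose intervals lay above 1.

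Against gene-end regions of like count and gene density, fewer of these genes stood out. With the median of such regions subtracted, 21 of 35 lay above it, and the median excess was 0.12 in log2 fold. It was 0.26 for S phase genes (11 of 18 above) and 0.08 for mitosis genes (10 of 17 above). Ccne1 and Cenpe were 1.02 above their like regions, E2f1 0.69, Ube2c 0.63 and Mcm4 0.51. Cenpa was at -0.88, Tyms at -0.72, Cdc20 at -0.63 and Top2a at -0.51. The part of count, gene density and the unequal counts per fragment in the folds was not tested further.

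**Figure D4:**
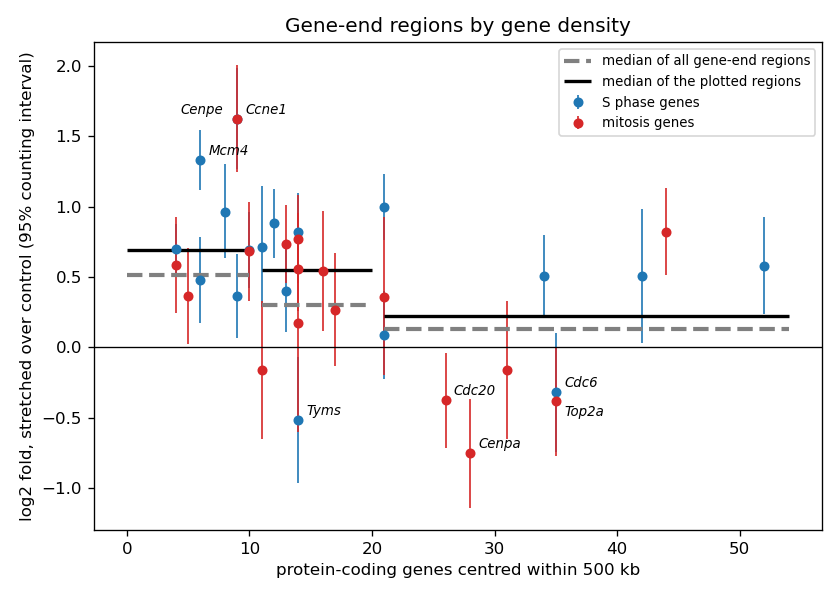
Log2 fold (stretched over control, bars for the 95% counting interval) of the 35 gene-end regions against gene density, counted as protein-coding genes with a centre within 500 kb. Black lines are medians of the plotted regions (0.69, 0.55 and 0.22 from sparse to dense) and dashed grey lines those of all gene-end regions (0.51, 0.30 and 0.13).

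The authors' peak lists give a readout scaled within each library, since a peak's fold enrichment compares its summit with the local background of the same library. All 35 gene-end regions held a listed peak in both libraries, against 92.6% of all gene-end regions. The median of the highest enrichment per region was 8.64 for control cells and 11.1 for stretched skin. Over all gene-end regions these medians were 6.83 and 9.19. The stretched value was higher in 28 of 35 (80%), against 88.4% of all gene-end regions with a peak in both, and the median ratio was 1.34 against 1.30. By phase it was higher in 13 of 18 S phase regions (72.2%, median ratio 1.31) and 15 of 17 mitosis regions (88.2%, 1.38). By this readout, S phase gene ends thus did not stand above mitosis gene ends as they did by counts.

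Some genes with large count folds were also far apart in peak enrichment, and others were not. Ccne1 went from 6.34 in the control to 11.6 in the stretched library, and Mcm6 from 5.38 to 10.0. Mcm4, with a count fold of 2.51, had an enrichment ratio of 1.33, and E2f1, with a count fold of 1.99, had 1.29. Both ratios were near the medians above. Bub1 (5.29 and 11.8) and Mybl2 (6.77 and 14.3) had the largest ratios, 2.22 and 2.11, with count folds of 1.46 and 1.66. The count fold and the enrichment ratio were both above 1 in 25 regions, both below 1 in 4, and on opposite sides of 1 in 6. Of these 6, the count fold was below 1 and the enrichment ratio above it at Cdc20, Top2a and Aurkb, and the reverse held at Pcna, E2f3 and Gmnn. The gap was widest at Cdc20, whose counts gave a fold below 1 while its enrichment was 8.06 and 14.3 and its summit pileup 69 and 113 fragments, not scaled to depth. At Pcna, with a count fold above 1, the enrichments were 11.2 and 9.58. Cenpa (12.6 and 12.0), Tyms (11 and 10.0), Cdc6 (8.83 and 8.36) and Ccnb2 (7.70 and 7.49) were below 1 by both readouts. Summits of the 2 libraries lay a median of 18 bp apart. In 31 regions with a start site listed by RefSeq, the highest summit lay a median of 139 bp upstream in the control and 111 bp upstream in the stretched library.

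**Figure D5:**
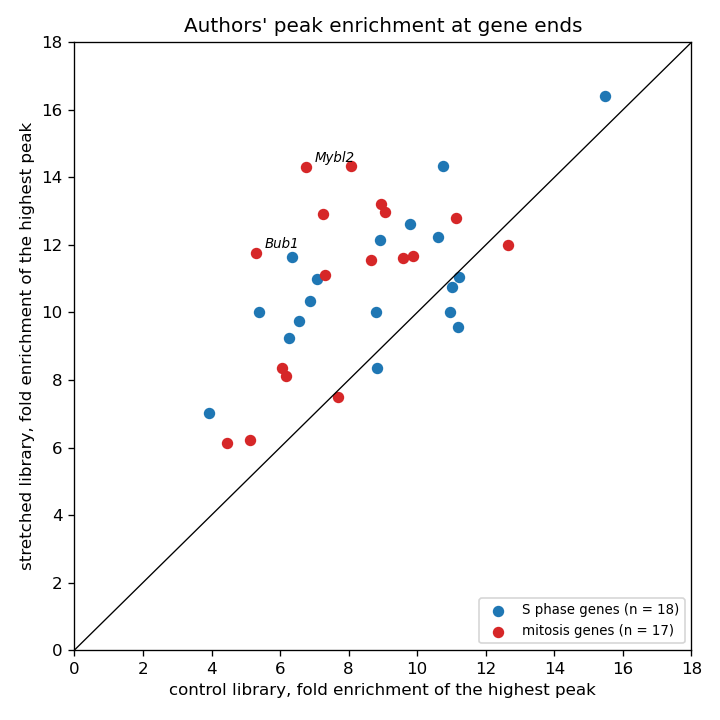
The authors' fold enrichment over local background of the highest peak in each of the 35 gene-end regions, control on the x axis and stretched on the y axis, with a line of equality. In 28 regions the point lies above the line, and Bub1 and Mybl2 lie furthest above it in ratio.

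Cell cycle promoters are often classed by 3 sequence elements, and some of the promoters here hold them. RefSeq promoter entries (GRCm38.p6) matched 33 of the 39 genes with 36 start sites, and the 250 bases before each were searched on both strands. The E2F word was any of TTTCCCGC, TTTCGCGC, TTTGGCGC and TTTGCCGC. The CHR word, the cell cycle homology element bound by MuvB, was TTTGAA. The NF-Y word was CCAAT. The words differ enough not to contain one another, though E2F words on opposite strands can overlap, as at Mcm6. CCAAT words do so at Ube2c.

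E2F words were in 6 of 20 S phase promoters (30.0%) and 1 of 16 mitosis promoters (6.25%), against 2.35% of 21263 promoters of protein-coding genes. CHR words were in 3 of 20 (15.0%) and 7 of 16 (43.8%), against 14.5%. CCAAT words were in 13 of 20 (65.0%) and 14 of 16 (87.5%), against 35.4%. Over the 34 promoters that a member region covered, the median log2 fold was 0.58 with an E2F word (n = 7) and 0.51 without (n = 27). It was 0.53 with a CHR word (n = 10) and 0.52 without (n = 24). With CCAAT it was 0.54 (n = 25) and without it 0.40 (n = 9). E2f3 and Mcm7 each entered with 2 start sites in the same region. The E2f3 sites fell on both sides for each word. The ranges with and without a word therefore had to overlap, and nothing is read from that.

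For each phase the promoters of the 2 gene ends with the highest and the 2 with the lowest fold are printed, among those whose listed start lies within 30 bp of the annotated gene end. Those of the mitosis genes all hold a CCAAT word, and only Mcm6 holds an E2F word. Over the 8 printed promoters together, the higher and the lower folds both occur with and without CCAAT and CHR words. Each is the strand of the gene, 5′ to 3′, ending at the base before the start site, and capitals mark E2F, CHR and CCAAT words on either strand. Of the S phase genes, Ccne1 (chr7:38107491-38107740, minus strand) and Mcm6 (chr1:128359706-128359955, minus strand) had the higher folds, and Tyms (chr5:30073626-30073875, minus strand) and Cdt1 (chr8:122567765-122568014, plus strand) the lower.
Ccne1: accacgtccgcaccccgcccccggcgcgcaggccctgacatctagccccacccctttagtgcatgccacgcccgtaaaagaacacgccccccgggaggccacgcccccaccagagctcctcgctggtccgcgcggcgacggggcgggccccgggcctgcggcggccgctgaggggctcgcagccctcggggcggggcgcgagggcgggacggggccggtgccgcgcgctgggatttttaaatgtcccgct
Mcm6: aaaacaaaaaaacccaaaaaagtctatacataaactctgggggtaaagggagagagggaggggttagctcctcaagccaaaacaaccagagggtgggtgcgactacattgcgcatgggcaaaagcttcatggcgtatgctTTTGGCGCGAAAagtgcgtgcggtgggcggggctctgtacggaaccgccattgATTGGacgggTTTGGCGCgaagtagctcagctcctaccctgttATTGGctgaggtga
Tyms: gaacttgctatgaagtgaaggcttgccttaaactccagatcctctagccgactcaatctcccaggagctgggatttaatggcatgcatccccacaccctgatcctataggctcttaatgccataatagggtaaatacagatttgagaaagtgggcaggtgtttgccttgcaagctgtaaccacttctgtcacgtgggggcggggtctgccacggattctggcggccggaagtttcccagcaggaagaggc
Cdt1: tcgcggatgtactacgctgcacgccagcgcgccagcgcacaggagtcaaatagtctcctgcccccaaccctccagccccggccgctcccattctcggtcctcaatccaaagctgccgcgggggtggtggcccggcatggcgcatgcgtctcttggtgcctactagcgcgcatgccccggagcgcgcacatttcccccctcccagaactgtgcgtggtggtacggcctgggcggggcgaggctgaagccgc

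Mcm6 has 3 E2F and 2 CCAAT words in this window, and the other 3 S phase promoters have none of the words. Of the mitosis genes, Cenpe (chr3:135212313-135212562, plus strand) and Ube2c (chr2:164769679-164769928, plus strand) had the higher folds, and Cenpa (chr5:30666636-30666885, plus strand) and Top2a (chr11:99024190-99024439, minus strand) the lower.
Cenpe: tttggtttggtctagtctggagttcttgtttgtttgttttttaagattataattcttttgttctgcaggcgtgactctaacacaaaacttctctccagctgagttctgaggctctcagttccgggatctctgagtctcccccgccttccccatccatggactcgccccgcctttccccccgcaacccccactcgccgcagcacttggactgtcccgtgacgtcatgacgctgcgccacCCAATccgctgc
Ube2c: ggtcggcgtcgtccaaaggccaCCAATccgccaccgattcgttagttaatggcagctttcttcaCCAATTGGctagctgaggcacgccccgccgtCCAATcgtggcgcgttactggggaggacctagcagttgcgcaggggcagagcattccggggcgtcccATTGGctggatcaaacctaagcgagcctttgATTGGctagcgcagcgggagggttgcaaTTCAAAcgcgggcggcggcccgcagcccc
Cenpa: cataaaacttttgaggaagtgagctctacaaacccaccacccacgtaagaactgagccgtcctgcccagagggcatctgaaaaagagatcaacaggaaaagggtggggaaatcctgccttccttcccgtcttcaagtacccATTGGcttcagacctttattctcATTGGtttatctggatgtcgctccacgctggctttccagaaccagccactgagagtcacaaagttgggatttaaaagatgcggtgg
Top2a: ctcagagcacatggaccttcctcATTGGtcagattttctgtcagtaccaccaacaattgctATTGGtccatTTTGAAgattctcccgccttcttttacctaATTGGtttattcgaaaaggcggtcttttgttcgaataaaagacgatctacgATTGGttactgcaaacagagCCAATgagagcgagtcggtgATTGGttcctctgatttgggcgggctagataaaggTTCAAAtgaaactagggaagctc

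Top2a, with a fold of 0.767, and Ube2c, with a fold of 1.76, each hold 6 CCAAT words, and both hold CHR words, 2 at Top2a and 1 at Ube2c. Cenpe holds a single CCAAT word 12 to 8 bases before its start.

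The wider pathway was described with 48 further replication genes and 57 further mitosis genes, of which 45 and 55 had a region. At their gene ends, 19 of 85 regions were called higher (22.4%, against 9.94% of all) and none lower. By phase these were 6 of 37 and 13 of 48. Their median log2 fold was 0.53, close to the 0.54 of the 39 genes above. Of the 85 folds, 82 exceeded 1 (96.5%, against 69.8% of all gene-end regions). With the median of gene-end regions of like count and gene density subtracted, 60 of 85 lay above it. The median excess was 0.22 in log2 fold, against 0.12 for the 39 genes. Away from gene ends, 15 of 176 regions were called higher (8.52%, against 6.11% of all) and 13 lower (7.39%, against 9.86% of all), with a median log2 fold of -0.07, as over all other regions. Among replication genes, Pola1, the catalytic subunit of the polymerase that lays primers, is on chromosome X, and 2 regions inside it with 25 and 31 summed counts were called higher. Rfc1, a subunit of the clamp loader, had 1 intragenic region called higher, with a fold of 2.57 (1.34 to 5.18), and 1 called lower, with a fold of 0.352 (0.167 to 0.693). Among mitosis genes, Ttk, a checkpoint kinase, had 114 and 233 counts at its end, a fold of 2.16 (1.72 to 2.73). Cenpc1, a centromere protein, had 255 and 500 counts at its end, a fold of 2.07 (1.78 to 2.42). Mad1l1, a checkpoint protein gene with 28 regions, none at an end, had 7 called lower and a summed fold of 0.705 (0.656 to 0.758).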

How the data were processed

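ATAC-seq libraries of sorted basal cells from 1 control and 1 stretched mouse were compared over merged regions, with groups from the treatment label. Tools listed in the submitters' processing notes were HTSeq, Picard, MACS2 (2.1.0.20151222), SAMtools and Bowtie2 (2.2.6), with GRCm38 as the build. Per the file headers, the authors called peaks in each library alone with a q cutoff of 0.05 and no control file, from alignments whose name says that duplicates were removed. The deposited counts are raw counts. The sources used here do not give whether reads or fragments were counted, or whether duplicates were kept. The deposited pileup is a signal in whole fragments, the deposited fold enrichment is a ratio to local background, and each summit has a p-value and q-value deposited as -log10.

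Counts were scaled with TMM (edgeR 4.0.16 under R 4.3.3) on the whole table of 109257 regions. A fold has an exact 95% interval from the share of counts in the stretched library. A called region had a fold of at least 2, at least 20 counts and an interval without 1. The rule was tested on simulated counts that held counting error only, so that test does not cover differences between animals. The gene assignment was tested on made-up regions and genes. Gene spans came from RefSeq (GRCm38.p6, 21900 protein-coding genes), a table without strand, so a gene end is either end of the span. Exons and introns were not used here. Every gene of the list was described. Called regions and, for 2 further lists, the 3 genes with the most called regions were named, of which 1 is not reported here. Members, lists and alternatives were chosen with earlier results of these data known, and motifs after the folds were seen. Alternatives were DESeq2 1.42.0 size factors and other scalings, a trend on count removed with statsmodels 0.14.6, and other count, fold, interval and distance limits. Plots were drawn with matplotlib 3.10.9, and intervals computed with scipy 1.17.1, pandas 2.3.3 and numpy 2.4.6 under Python 3.11.15.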

Additional observations from a re-analysis of the deposited data

How the results depend on the processing

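With 1 library per group, differences between animals cannot be separated from the treatment, and folds rest on the scaling. DESeq2 size factors shifted log2 folds by 0.01 and kept the summed folds and called counts close. Total counts shifted them by -0.50 and gave summed folds of 1.16 for S phase gene ends, 0.770 for other S phase regions, 0.944 for mitosis gene ends and 0.833 for other mitosis regions, with 2 regions called higher and 11 lower in place of 5 and 0. Counts outside the large regions gave 1.49, 0.988, 1.21 and 1.07 in the same order, with 2 called lower. Scaling by fragments, chosen after seeing the data, gave 2.08, 1.38, 1.69 and 1.49, with 18 called higher. With a trend on count removed, S phase gene ends were at 1.25, mitosis gene ends at 1.15 and other mitosis regions at 1.08, with 3 called higher.

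A fold limit of 1.5 called 18 higher and 6 lower, and a limit of 3 called 2 higher. A distance of 50 kb called 8 higher and 1 lower. With a gene end widened to 1 kb, the other regions summed to 1.0 for S phase, just below equality, and 0.910 for mitosis. Regions inside spans alone gave 1.52 for other mitosis regions. Chosen after seeing the data, removal of the median of like regions gave 1.14 and 1.05 at S phase and mitosis gene ends, with 3 called higher. Without regions shared with another gene, S phase gene ends were at 1.55, and without the Mcm4 region at 1.56. Without the Ccne2 or Ccna2 region, the other regions fell to 0.998 for S phase and 0.886 for mitosis. The cause of these shifts was not tested beyond what each setting changes. No paired analysis was possible because each group has 1 library and the labels pair none. Low counts limit the regions away from gene ends most.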
